A study of Arabidopsis thaliana with 18 samples.

Results

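The genes described here are 106 of the 37037 entries in a gene table of Arabidopsis thaliana roots, poly(A) RNA-seq of the ecotype Col-0. They are the transcripts that were higher in untreated phosphate-starved roots and that lay close to the untreated level when the starved roots received either isomer of the cytokinin zeatin. The unit is CPM, a gene's reads scaled to a common total of counted reads in each library, averaged over the 3 libraries of a group and placed on a log2(CPM + 1) scale. A gene was kept when its group mean reached 5 CPM in at least 1 of the 4 groups the rule uses, when untreated low phosphate exceeded untreated full phosphate by at least 1, and when trans-zeatin and cis-zeatin in low phosphate each differed from untreated low phosphate by between -0.3 and 0.3. The level was reached by 15841 genes, and 550 of those passed the starvation threshold. Among the 550 were the 106 members, 266 genes under -0.3 with both isomers, 46 genes over 0.3 with both, and 132 genes with another combination.

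Seedlings were grown on Murashige and Skoog medium for 8 days, and each of 6 groups has 3 libraries. Low-phosphate seedlings had 5 µM phosphate and received 5 µM trans-zeatin for 8 h (5Pi_tZ), 5 µM cis-zeatin for 8 h (5Pi_cZ) or neither (5Pi). Full-phosphate seedlings had 625 µM phosphate and received 5 µM trans-zeatin for 8 h (Pi_tZ), 5 µM cis-zeatin for 8 h (Pi_cZ) or neither (Pi). All 6 groups are wild-type roots, and the labels name no mock treatment for the untreated ones. Nothing in the labels says that replicates came from separate cultures, so p-values measure only the spread between these samples, which may be technical.

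As background, roots short of phosphate switch on a transcriptional program in which the factor PHR1 and its relatives bind a short palindromic element called P1BS in front of transporter, phosphatase and lipid genes. They also make longer and denser root hairs, tubular outgrowths of epidermal cells that elongate at the tip through targeted secretion and wall assembly. Cytokinins are known to repress many genes of phosphate starvation. trans-Zeatin and cis-zeatin are isomers about a double bond of the side chain, and trans-zeatin is regarded as the more active isomer in Arabidopsis.

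Libraries held 20839562 to 21871669 counted reads. In 5Pi_cZ replicate 2 the summed level of 5 extensin genes (AT5G06630, EXT6, HRGP1, AT3G54580 and AT3G28550) was 2964 CPM, against 10381 and 11852 CPM in the other two replicates. The remaining 101 members summed to between 5859 and 6102 CPM in those 3 libraries. In 5Pi_tZ replicate 2, 86 of the 106 members lay under the mean of the other two replicates on the log2(CPM + 1) scale, with a median of -0.26 (82 members and -0.19 in 5Pi replicate 2), and the summed level of a list of 17 root hair genes was 2487 CPM, against 3404 and 3355 CPM. By the same measure 83 members lay under in Pi_tZ replicate 1 (-0.17) and 80 in Pi replicate 1 (-0.12). In Pi_cZ replicate 2, 84 lay above (0.12). The root hair list summed to 598 CPM in Pi_tZ replicate 1, against 876 and 857 CPM in the other Pi_tZ libraries. Reads discarded for undetermined bases divide the libraries into 3 sets, which the labels do not name: Pi and Pi_tZ share a set (81544 to 85178 discarded reads), Pi_cZ, 5Pi and replicate 1 of 5Pi_tZ share another (22738 to 25354), and 5Pi_cZ and the other 5Pi_tZ libraries make up the last (40794 to 58614). Only Pi_tZ against Pi was compared within a single set. 5Pi_tZ against 5Pi is within a set for 5Pi_tZ replicate 1, and 5Pi_tZ against 5Pi_cZ for 5Pi_tZ replicates 2 and 3, so a term for the set could be fitted among Pi_cZ and the low-phosphate groups; it rests on the 3 5Pi_tZ libraries. In 5Pi against Pi, Pi_cZ against Pi, Pi_tZ against Pi_cZ and 5Pi_tZ against Pi_tZ the set and the treatment cannot be told apart.

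The labelled tissue was checked on markers. The list of 15 photosynthesis genes summed to 30.8 to 239.9 CPM over all libraries, and that of 17 root hair genes to 598 to 4399 CPM. In whole roots, fewer cells of a type and less RNA per cell cannot be told apart.

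**Figure D1:**
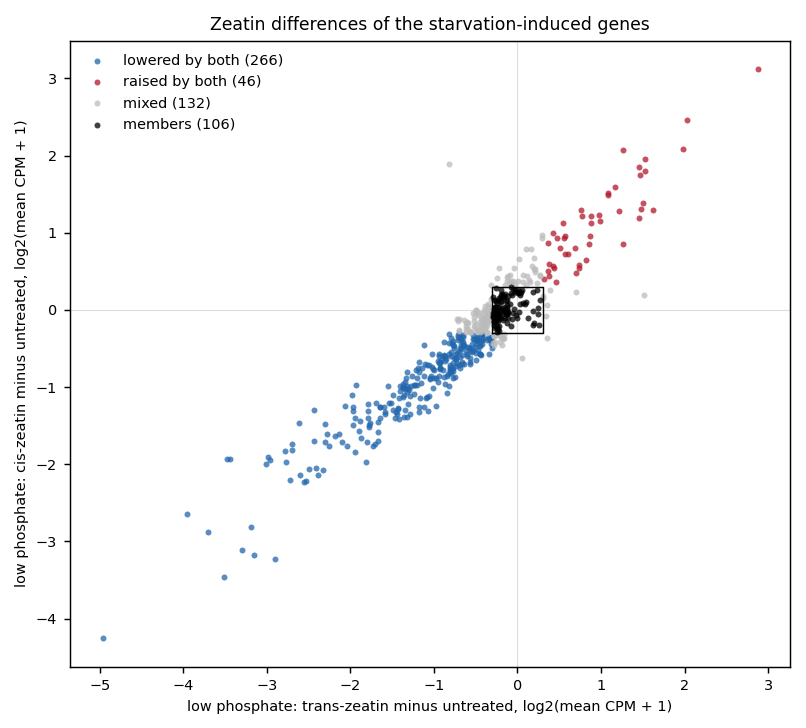
The 550 starvation-induced genes are placed by their differences under trans-zeatin (horizontal) and cis-zeatin (vertical) against untreated roots in low phosphate, in log2(mean CPM + 1). The box marks -0.3 and 0.3 on both axes and holds the 106 members in black; 266 genes lowered by both isomers lie to its lower left, 46 raised by both to its upper right, and 132 others in grey.

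The members' starvation difference had a median of 1.55 and ran between 1.002 and 5.07. The trans-zeatin difference in low phosphate had a median of -0.16 and was negative in 84 of the 106, so the members lay toward the lower edge of the band. For cis-zeatin the median was 0.0042, with 55 positive and 51 negative. These 3 measures chose the members and carry no test. In edgeR's quasi-likelihood fit of all 19982 genes tested, 106 members were higher in 5Pi than in Pi at an adjusted p (Benjamini-Hochberg) under 0.05, where 22.9% of all genes tested were called higher, 21.8% lower and 44.7% in either direction. Against 5Pi, 2 members were called higher and 2 lower in 5Pi_tZ, where 32.2% of all genes tested were called in either direction, and 2 were called higher in 5Pi_cZ, where the share was 31.2%. Within the set shared with 5Pi, with 5Pi_tZ replicate 1 alone, the members' median log2 fold change was -0.05, beside -0.16 with all 5Pi_tZ libraries. With the set as a term the counts were 2 and 2 for 5Pi_tZ and 1 and 1 for 5Pi_cZ. The shares of all genes called in either direction were then 20.7% and 13.4%. Libraries of the same number in 5Pi_tZ and 5Pi deviated together (correlations 0.267, 0.303 and 0.166). A fit of those 2 groups with the replicate number as a block called 6 members higher and 18 lower, against 2 and 0 without the block. Of all genes, 38.7% were called in either direction with the block and 26.2% without it. Nothing is read from those counts, since the rule fixed the differences behind them.

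Just inside the starvation threshold was AT3G46760, a protein kinase gene, at 1.002, and just outside was UGT84A2 at 0.999. On the trans-zeatin side AT3G20557, an uncharacterized protein gene, was inside at -0.2985 and PARP2 outside at -0.312, while AT1G33090, a MATE efflux family gene, was inside at 0.275 and AT2G05510 outside at 0.302. With cis-zeatin AT1G30550, a methyltransferase gene, was inside at -0.284 and AT1G23750 outside at -0.308, and MLO15 was inside at 0.295 and PMZ outside at 0.322. The level threshold was passed most narrowly by LSU4 with 5.05 CPM in 5Pi_cZ and missed by TH8 with 4.99 CPM in the same group. Membership was sensitive to single libraries: the rule applied without 1 library at a time gave 83 to 123 genes, and 38 of the 106 were kept in all 12 such settings. Leaving out 5Pi replicate 2 kept the fewest, 73 of the 106.

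Windows of 500 bases before the annotated gene start were searched for 2 elements. Coordinates and bases come from the RefSeq annotation and genome TAIR10.1; the sources used here do not name the build used for counting. P1BS, spelled GNATATNC and read on both strands, was present in 18 of the 106 members' windows, or 17%. It was present in 10.8% of the 19795 tested protein-coding genes with a window, and among the other starvation-induced genes in 29.4% of those under the band with both zeatins, 19.6% of those over it and 15.3% of the mixed ones. The root hair element RHE, read on both strands, was present in 9 members (8.49%) and in 1.51% of all tested protein-coding genes. Its share was 13% (17 of 131) among the mixed genes and 10.9% (5 of 46) among those over the band, both above the members' share, and 3.05% (8 of 262) among those under it. No member had both. A match is a description of the letters in the window and not a site shown to be used.

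**Figure D2:**
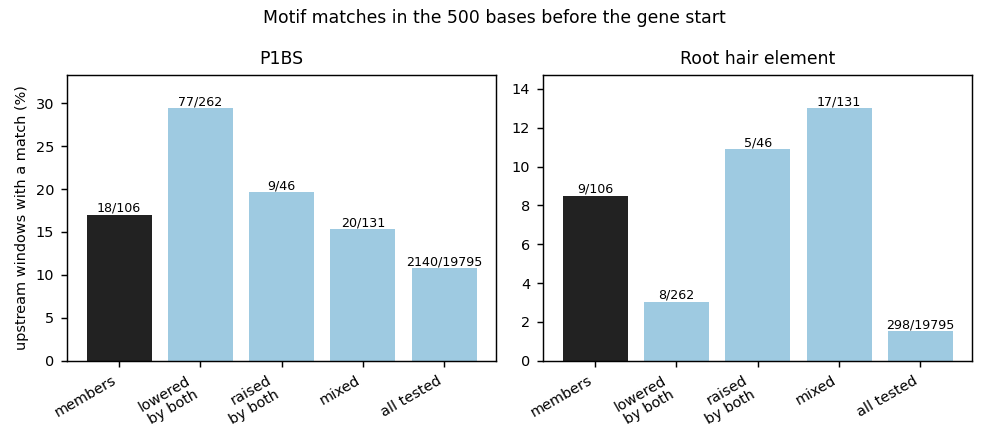
Bars give the percentage of upstream windows of 500 bases that hold at least 1 match, for P1BS (left) and the root hair element (right), with the counts above each bar. For P1BS the 106 members stand at 17% beside 29.4% in genes lowered by both zeatins, 19.6% in those raised by both, 15.3% in mixed genes and 10.8% in all tested; for the root hair element they stand at 8.49% beside 3.05%, 10.9%, 13% and 1.51% in the same order.

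Stretches of 60 bases with a match to the root hair element, in capitals, are shown for 4 members that act in or are annotated to root hairs, 5′ to 3′ on the gene's strand.
EXPA7: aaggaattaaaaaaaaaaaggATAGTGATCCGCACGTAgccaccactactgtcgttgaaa
RHS14: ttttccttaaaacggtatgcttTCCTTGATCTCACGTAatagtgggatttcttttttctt
ROPGEF10: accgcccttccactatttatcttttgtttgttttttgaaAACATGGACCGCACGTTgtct
RSH3: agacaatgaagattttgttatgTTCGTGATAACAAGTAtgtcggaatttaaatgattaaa
The EXPA7 stretch is chr1:4276406-4276465 on the plus strand, RHS14 chr4:11703113-11703172 on the minus strand, ROPGEF10 chr5:6602850-6602909 on the plus strand and RSH3 chr1:5615681-5615740 on the plus strand. In RSH3 the element reads on the opposite strand, and in the other 3 it reads along the gene. Its first base in the gene's direction lies 78 bases before the gene start in EXPA7, 365 in RHS14, 21 in ROPGEF10 and 105 in RSH3. The other 5 members with a match were ABCA3, AT3G07350, CSD1, AT4G10370 and TPR14, outside the wall and tip growth roles described below. Within those roles 4 of 31 members had a match (12.9%), and outside them 5 of 75 (6.67%). None of the 10 wall proteins had a match.

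Shown next are 4 members with P1BS, in capitals, chosen because they span a ribonuclease of the T2 family, a chitinase, a wall peroxidase and a lipid kinase of root hairs.
AT1G14220: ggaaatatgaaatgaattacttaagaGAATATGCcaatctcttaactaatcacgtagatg
ChiC: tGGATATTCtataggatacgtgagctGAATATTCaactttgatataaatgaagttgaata
AT1G30870: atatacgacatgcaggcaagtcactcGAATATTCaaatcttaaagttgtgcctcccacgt
PIP5K3: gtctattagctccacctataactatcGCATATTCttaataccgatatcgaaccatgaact
They lie at chr1:4859711-4859770 (minus), chr4:10765999-10766058 (minus), chr1:10991355-10991414 (plus) and chr2:11243041-11243100 (minus). The match nearest the gene start begins 83 bases before it in AT1G14220, 237 in ChiC, 97 in AT1G30870 and 111 in PIP5K3. ChiC has another match in the printed stretch, 262 bases before the start, and AT1G14220 another outside it, at 500 bases. RNS1, the other ribonuclease among the members, had no P1BS match in its window.

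The members were grouped by role after their values were seen, so the groups order the description only: 10 wall proteins, 9 wall enzymes, 12 genes of tip growth machinery, 7 other kinases, 2 ribonucleases, 11 transporters, 8 nuclear proteins, 16 defence and stress genes, 5 glucosidases and carbon enzymes, and 26 others. Annotation text in RefSeq mentioned root hairs for 8 members (7.55%), against 0.356% of all genes tested. Among the other starvation-induced genes the share was 11.4% of the 132 mixed genes, 4.35% of the 46 over the band with both zeatins and 2.63% of the 266 under it.

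**Figure D3:**
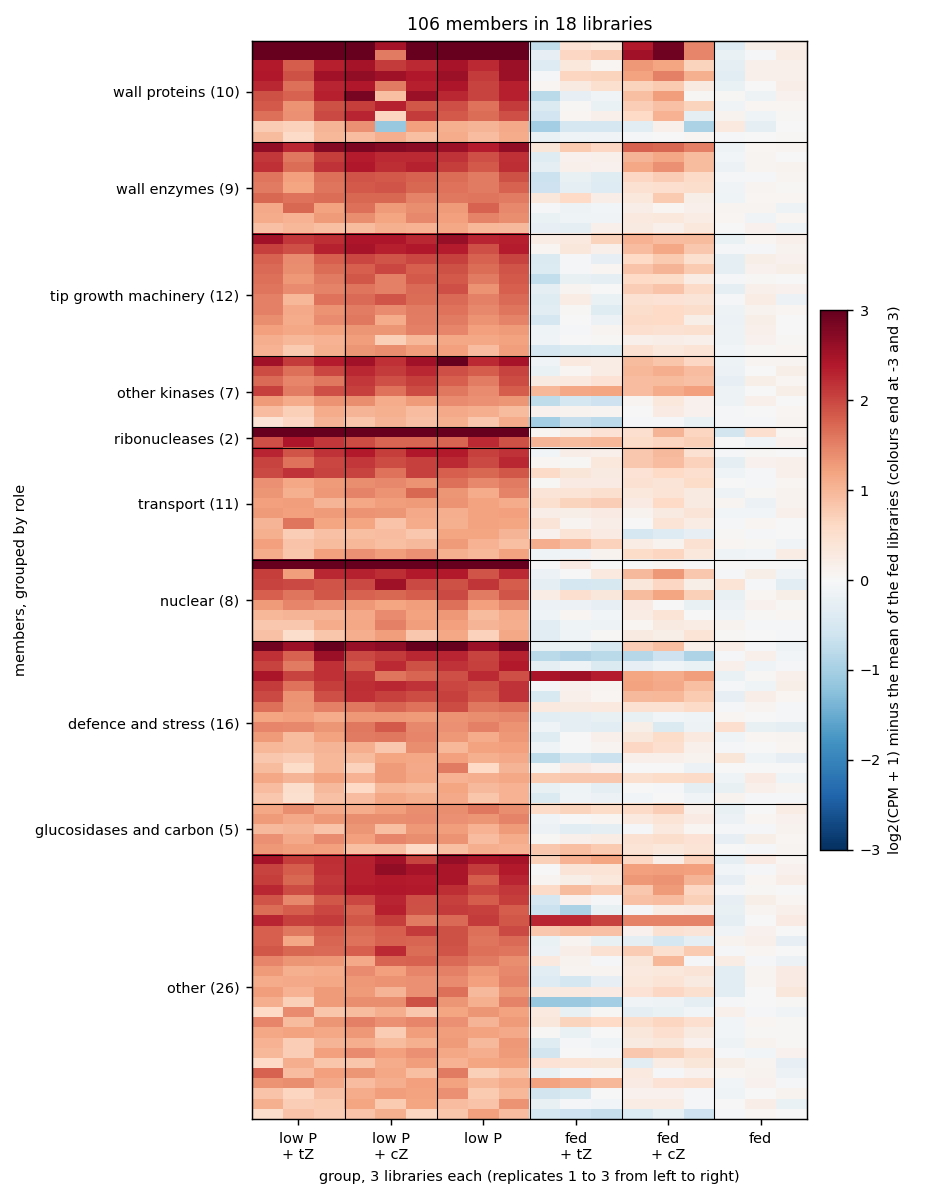
Each row is 1 of the 106 members and each column 1 of the 18 libraries; colour gives log2(CPM + 1) minus the mean of the 3 untreated full-phosphate (fed) libraries, with low phosphate on the left and rows grouped by role. The 9 low-phosphate columns are red throughout apart from single cells such as 1 extensin in 5Pi_cZ replicate 2, and among the fed groups the cis-zeatin columns are redder than the trans-zeatin columns for most wall and tip growth genes.

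What the rule left free is the response of the same genes to zeatin in full phosphate. trans-Zeatin raised 27 members and lowered 12 there (Pi_tZ against Pi), where 24.2% of all genes tested were called higher and 25.3% lower, and the members' median log2 fold change was 0.08 beside -0.0050 over all genes. The share of members called higher, 25.5%, was near the background share. With cis-zeatin 66 members were higher and 3 lower (Pi_cZ against Pi), where 12.7% of all genes tested were called higher and 13.5% lower. The median was 0.58 beside -0.03. Both of these comparisons use the Pi libraries, in which the rule required a low level, so these values are not independent of how the members were chosen.

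Direct comparison of the isomers in full phosphate (Pi_tZ against Pi_cZ) uses no library that the rule used. It is not free of the sequencing sets, since Pi_tZ shares a set with Pi, and Pi_cZ with 5Pi. A difference between those sets would enter both the rule's starvation difference and this comparison, and it was not tested. In Pi_tZ against Pi_cZ 10 members were higher and 56 lower with trans-zeatin. Of all genes tested 20.7% were called higher, 20.5% lower and 41.2% in either direction. The median log2 fold change was -0.44 beside -0.0080 over all genes. Without Pi_tZ replicate 1, 11 members were called higher and 44 lower, and without Pi_cZ replicate 2, 10 and 49. This excess of lower calls was shared with the other starvation-induced genes: of the 443 of those tested, 46 were higher and 223 lower, with a median of -0.42. In Pi_cZ against Pi, 66 of 106 members (62.3%) were called higher, beside 76 of 132 genes of mixed response (57.6%), 46 of 46 over the band with both isomers and 28 of 265 under it with both (10.6%). Lower calls numbered 3 among the members, 8 among the mixed genes, 0 among those over the band and 93 among those under it. The rise was thus not particular to the members, and the classes were not tested against each other, since the rule sorted the genes.

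In low phosphate 1 member was called higher and 5 lower in 5Pi_tZ than in 5Pi_cZ. Of all genes tested 1.35% were called higher, 1.42% lower and 2.77% in either direction. Most members lay slightly lower with trans-zeatin: 90 of the 106 had a negative log2 fold change, with a median of -0.19 beside -0.0026 over all genes. All 5Pi_tZ libraries lay under all 5Pi_cZ libraries in 28 members and above them in 1. Of the genes reaching the level 7.4% lay so under and 10.5% above. Within the set that 5Pi_cZ shares with 5Pi_tZ replicates 2 and 3, 1 was higher and 2 lower, 3 of the same 6. There the members' median was -0.25, and 1.97% of all genes were called in either direction. The rule had placed both groups within its band.

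**Figure D4:**
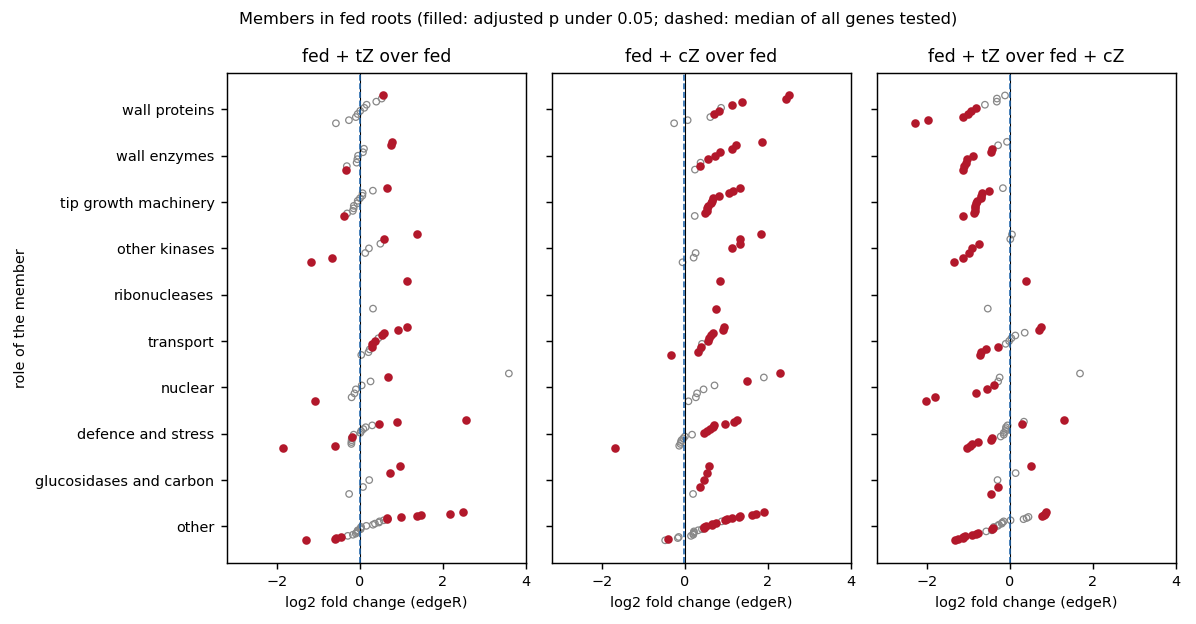
Each point is a member, placed by its edgeR log2 fold change in full-phosphate (fed) roots and grouped by role; filled points passed an adjusted p of 0.05 and the dashed line is the median of all genes tested. In the middle panel 66 filled points lie right of 0 and 3 left; in the right panel 56 lie left of 0 and 10 right.

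Within the ribonucleases, RNS1 (AT2G02990, chr2:873506-874886, plus strand), a secreted S-like ribonuclease that frees phosphate from RNA, had the highest starvation difference of the members. Its levels were 180.3, 178 and 226 CPM in 5Pi_tZ, 188 and 216 and 181 CPM in 5Pi_cZ, and 200.5, 178 and 166 CPM in 5Pi, against 2.53, 6.34 and 4.47 CPM in Pi. The starved groups overlapped each other and stood far above the fed one. With full phosphate RNS1 stayed low under zeatin, at 4.39, 5.11 and 6.10 CPM in Pi_tZ and 6.42, 9.50 and 7.22 CPM in Pi_cZ. Its log2 fold change was 0.85 ± 0.23 (SE, n = 3 per group) in Pi_cZ against Pi, with an adjusted p of 7.17e-03 by edgeR's quasi-likelihood test, a call that was lost without Pi_cZ replicate 2 (0.68). RNS1 was the 1 member from a list of 16 phosphatase and scavenging genes, of which 9 were starvation-induced and 7 lay under the band with both zeatins.

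The second ribonuclease, AT1G14220 of the T2 family, went with trans-zeatin in fed roots. It had 22.5, 21.3 and 22.3 CPM in Pi_tZ and 16.02, 17.3 and 18.2 CPM in Pi_cZ, against 10.5, 9.84 and 11.7 CPM in Pi, with no overlap between the 3 groups. The log2 fold change was 1.14 ± 0.13 for Pi_tZ against Pi (adjusted p = 2.46e-07, edgeR) and 0.39 ± 0.12 for Pi_tZ against Pi_cZ (adjusted p = 0.0129, edgeR). In low phosphate it averaged 51.8 CPM with trans-zeatin, 39.99 CPM with cis-zeatin and 45.0 CPM untreated.

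**Figure D5:**
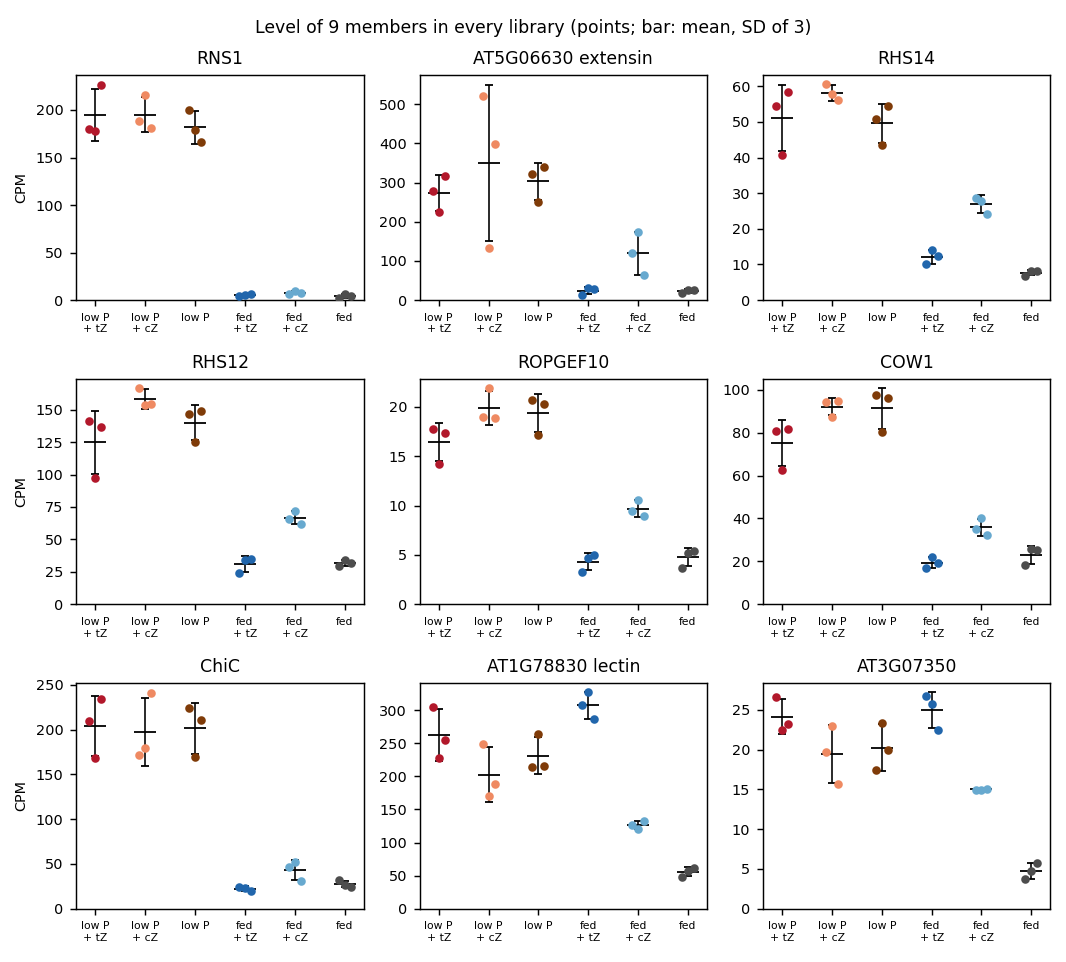
Points give the CPM of 9 members in each library, with the mean and SD of the 3 replicates in black; low-phosphate groups are on the left of each panel and untreated full-phosphate (fed) roots at the right. RNS1 is low in every fed group, RHS14, RHS12, ROPGEF10 and COW1 are intermediate in fed roots with cis-zeatin, AT1G78830 and AT3G07350 are as high in fed roots with trans-zeatin as in starved roots, and AT5G06630 has 1 low library in starved roots with cis-zeatin.

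The 4 highest members by level per length were wall proteins. Per kilobase of exon the untreated starved level was 936 CPM for AT3G54580, 859 CPM for AT3G28550 and 644 CPM for HRGP1 (AT3G54590), all extensins, hydroxyproline-rich proteins that cross-link into the wall, and 450 CPM for AGP3, an arabinogalactan protein. The median member stood at 14.1 CPM per kilobase. AT3G54580 (chr3:20200573-20203919, minus strand) and HRGP1 (chr3:20206128-20208783, plus strand) are neighbours on chromosome 3. Extensin exons are repetitive: 60% of the 50-base windows of EXT6, 67.9% of AT5G06630, 69.9% of AT3G54580, 75.9% of AT3G28550 and 83% of HRGP1 occur once in the genome. Values of these genes are uncertain, because reads are 50 bases long and could be shared. Of the 106 members, 85 had every window found once.

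Among the extensins AT5G06630 (chr5:2036312-2037855, minus strand) had the widest isomer difference. In fed roots it had 13.1, 30.5 and 28.3 CPM in Pi_tZ and 122, 173 and 63.8 CPM in Pi_cZ, against 17.1, 25.4 and 26.1 CPM in Pi. Every Pi_cZ library was above all libraries of Pi_tZ and Pi. The log2 fold change was 2.45 ± 0.41 for Pi_cZ against Pi (adjusted p = 7.70e-05, edgeR) and -2.28 ± 0.40 for Pi_tZ against Pi_cZ (adjusted p = 1.31e-04, edgeR). EXT6 (AT2G24980) moved likewise, by 2.51 ± 0.45 and -1.98 ± 0.44 (adjusted p = 2.14e-04 and 1.29e-03, edgeR).

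The same 2 genes show how the rule's band was reached with cis-zeatin in starved roots. AT5G06630 had 519.8, 132 and 399.7 CPM in 5Pi_cZ, against 321, 250.5 and 339 CPM in 5Pi, and EXT6 had 760.3, 118 and 643 CPM, against 419, 370.0 and 482 CPM. Replicate 2 of 5Pi_cZ was the lowest library in both genes and the other two replicates were above every 5Pi library. Without that replicate the cis-zeatin difference of AT5G06630 was 0.60 and that of EXT6 0.73, both outside the band, as were HRGP1 at 0.49 and AT3G54580 at 0.38. In all, 12 members left the band without this library, 4 of them wall proteins. The coefficient of variation of the 5 extensins in 5Pi_cZ was 49.2 to 67.4%, against 4.09 to 15.4% in 5Pi, while the median over all members was 9.74% in 5Pi_cZ and 10.6% in 5Pi. In fed roots the 5 extensins had 36.4 to 45.8% in Pi_cZ and 18.8 to 39.4% in Pi_tZ, against 8.3 to 22% in Pi. Their summed level in Pi_cZ replicate 3 was 2005 CPM, under every Pi library (2369 to 3093 CPM).

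Of the 10 wall proteins 6 were higher in Pi_cZ than in Pi, beside 12.7% of all genes tested and 62.3% of all members. In Pi_tZ 6 were lower than in Pi_cZ, beside 20.5% of all genes tested and 52.8% of all members. None went the other way in either comparison. AGP3 (AT4G40090) had 55.2, 89.6 and 75.3 CPM in Pi_tZ and 178, 165 and 115 CPM in Pi_cZ, against 58.6, 79.5 and 80.0 CPM in Pi, and its isomer difference was -1.02 ± 0.20 (adjusted p = 3.20e-04, edgeR). MOP10 (AT5G05500), of the pollen Ole e 1 and extensin family, differed by -0.93 ± 0.16 (adjusted p = 9.82e-05). HRGP1 differed by -1.14 ± 0.34 (adjusted p = 0.0104, edgeR), a call lost without Pi_cZ replicate 2 (-0.85) and without Pi_tZ replicate 1 (-0.94). AT5G19800, a hydroxyproline-rich glycoprotein gene, was the 1 wall protein higher in Pi_tZ than in Pi, by 0.56 ± 0.22 (adjusted p = 0.0392), and that call was lost without Pi replicate 1 (0.40), Pi_tZ replicate 2 (0.45) or Pi_tZ replicate 3 (0.44). AT3G54580 and AT3G28550 passed in none of the fed comparisons, with -0.26 ± 0.37 (adjusted p = 0.682) in Pi_cZ against Pi for AT3G28550.

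Wall enzymes followed the same order: 7 of 9 were higher in Pi_cZ than in Pi and 7 were lower in Pi_tZ than in Pi_cZ, again with none the other way. The shares over all genes tested were 12.7% and 20.5%, and over all members 62.3% and 52.8%. RHS14 (AT4G22080), annotated as root hair specific 14, had 10.1, 13.98 and 12.4 CPM in Pi_tZ and 28.7, 27.9 and 24.0 CPM in Pi_cZ, against 6.90, 8.16 and 8.19 CPM in Pi. The 3 fed groups did not overlap. RHS14 was 1 of 2 wall enzymes higher in Pi_tZ than in Pi (0.75 ± 0.16, adjusted p = 6.83e-04, edgeR), and the isomer difference was -1.11 ± 0.15 (adjusted p = 4.99e-06). In starved roots it had 54.3, 40.6 and 58.3 CPM in 5Pi_tZ and 60.6, 57.8 and 56.1 CPM in 5Pi_cZ, against 50.8, 43.5 and 54.3 CPM in 5Pi.

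RHS12 (AT3G10710), root hair specific 12, had 24.3, 34.5 and 35.2 CPM in Pi_tZ and 65.9, 72.1 and 62.0 CPM in Pi_cZ, against 29.8, 33.8 and 31.7 CPM in Pi. Only the Pi_cZ libraries stood apart, and the isomer difference was -1.05 ± 0.15 (adjusted p = 9.41e-06, edgeR). EXPA7 (AT1G12560), an expansin that loosens the walls of hair cells, differed by -1.03 ± 0.13 (adjusted p = 2.96e-06). AT5G04960, of the invertase and pectin methylesterase inhibitor superfamily, differed by -1.14 ± 0.16 (adjusted p = 8.32e-06). The peroxidase gene AT1G30870 had 59.3, 75.1 and 70.2 CPM in Pi_tZ and 126, 131 and 132 CPM in Pi_cZ, against 85.7, 97.2 and 93.6 CPM in Pi. It fell with trans-zeatin (-0.34 ± 0.12, adjusted p = 0.0204), a call lost without Pi replicate 2 (-0.30), Pi replicate 3 (-0.32) or Pi_tZ replicate 1 (-0.21), and rose with cis-zeatin (0.56 ± 0.12, adjusted p = 8.34e-04).

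Of the 12 genes of tip growth machinery 11 rose in Pi_cZ against Pi, beside 12.7% of all genes tested and 62.3% of all members. In Pi_tZ against Pi_cZ 11 were lower, beside 20.5% of all genes tested and 52.8% of all members. In Pi_tZ against Pi 1 rose, 1 fell and 10 were not called, beside 24.2% higher and 25.3% lower. The median isomer difference of the 12 was -0.81. ROPGEF10 (AT5G19560), which activates the ROP GTPases that mark the growing tip, had 3.32, 4.64 and 4.97 CPM in Pi_tZ and 9.46, 10.6 and 8.95 CPM in Pi_cZ, against 3.71, 5.22 and 5.44 CPM in Pi. All cis-zeatin libraries lay above the rest, with an isomer difference of -1.13 ± 0.17 (adjusted p = 1.64e-05, edgeR).

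RIC1 (AT2G33460), a ROP effector, was the gene of this role that rose with trans-zeatin, by 0.66 ± 0.21 (adjusted p = 0.0127, edgeR), and it rose by 1.32 ± 0.19 with cis-zeatin (adjusted p = 1.82e-05). COW1 (AT4G34580), a phosphatidylinositol transfer protein needed for hair elongation, had 16.8, 22.0 and 19.2 CPM in Pi_tZ and 35.1, 40.1 and 32.3 CPM in Pi_cZ, against 18.4, 25.8 and 25.4 CPM in Pi. Its isomer difference was -0.86 ± 0.14 (adjusted p = 8.21e-05). MRH2 (AT3G54870), an armadillo-repeat kinesin, PERK13 (AT1G70460), a proline-rich receptor-like kinase annotated as root hair specific 10, and RSH3 (AT1G16440), annotated as root hair specific 3, differed by -0.82 ± 0.15, -0.84 ± 0.15 and -0.81 ± 0.13.

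The exception among the 12 was PIP5K3 (AT2G26420), a kinase that makes the phosphoinositide marking the hair tip. It had 11.3, 12.5 and 12.5 CPM in Pi_tZ and 13.6, 14.3 and 13.8 CPM in Pi_cZ, against 10.9, 13.5 and 12.6 CPM in Pi, and was called in none of the 3 fed comparisons. SP1L4 (AT5G15600), a relative of a microtubule protein, fell with trans-zeatin (-0.38 ± 0.11, adjusted p = 8.15e-03, edgeR) and rose with cis-zeatin (0.48 ± 0.11, adjusted p = 1.76e-03).

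A list of 17 root hair genes sets these members in their context. Of the 17, 14 were starvation-induced; 3 of those were members (RHS12, COW1 and EXPA7), 2 lay under the band with both isomers (RSL2 and IRE), 2 over it with both (PRP1 and RHS18), and 7 elsewhere. RSL2, a transcription factor of hair growth, averaged 53.1 CPM in 5Pi_tZ and 56.7 CPM in 5Pi_cZ, against 105 CPM in 5Pi, and PRP1, a wall protein gene, averaged 318 and 431 CPM, against 77.1 CPM. In Pi_cZ against Pi, 11 of the 17 rose and 2 fell, beside 12.7% and 13.5% of all genes tested. In Pi_tZ against Pi_cZ, 15 were lower and none higher, beside 20.5% and 20.7%. Their summed level was 598 to 876 CPM in Pi_tZ and 1343 to 1921 CPM in Pi_cZ, against 677 to 789 CPM in Pi, and moved with the members. None of the 17 was at 0, and their part in the members' result was not tested.

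Marker lists of other cells moved in the same comparisons. Over all genes tested 24.2% were called higher and 25.3% lower in Pi_tZ against Pi, and 12.7% and 13.5% in Pi_cZ against Pi. The 2 markers of non-hair epidermis, the cells beside hair cells, summed to 9.755 to 12.1 CPM in Pi_tZ and 11.4 to 13.5 CPM in Pi_cZ, against 19.2 to 21.3 CPM in Pi, and both fell with each isomer. The 8 endodermis markers summed to 272 to 313 CPM in Pi_tZ and 273 to 324 CPM in Pi_cZ, against 532 to 539.5 CPM in Pi; 5 fell with trans-zeatin and 6 with cis-zeatin. Xylem markers (7 genes) summed to 557 to 594 CPM in Pi_tZ and 643 to 741 CPM in Pi_cZ, against 519 to 598 CPM in Pi, and 5 of them rose with cis-zeatin. The 2 phloem markers summed to 77.0 to 88.9 CPM in Pi_tZ and 64.0 to 68.7 CPM in Pi_cZ, against 44.6 to 48.2 CPM in Pi, and 1 of them rose with each isomer. Photosynthesis genes (15) summed to 179.6 to 239.9 CPM in Pi_tZ and 80.7 to 83.3 CPM in Pi_cZ, against 81.8 to 126 CPM in Pi. No marker of the root cap (3 genes) was called in these comparisons, and 1 of 3 of the root tip fell, in Pi_tZ. The part these lists play in the members' values was not tested.

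In the nuclear group AT2G34210, annotated as transcription elongation factor Spt5, had no read in the 3 Pi libraries. It had 246, 303 and 211 reads in 5Pi_tZ, 209, 257 and 273 reads in 5Pi_cZ and 318, 299 and 269 reads in 5Pi. In fed roots 4 reads were found over Pi_tZ and 1 over Pi_cZ. Against a floor of 3 reads over the Pi group, 5Pi was at least 299-fold higher. The gene (chr2:14445938-14450522, plus strand) starts 823 bases after the end of MIR399f, which lies on the same strand and has no read in the table. MIR399f encodes a microRNA of the phosphate starvation pathway.

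CPL3 (AT4G01060), a single-repeat MYB protein of the CAPRICE family that promotes hair cell fate, had 0.561, 0.328 and 0.375 CPM in Pi_tZ and 1.43, 1.97 and 1.17 CPM in Pi_cZ, against 1.55, 0.839 and 0.512 CPM in Pi. The 2 zeatin groups did not overlap, and the isomer difference was -1.80 ± 0.39 (adjusted p = 9.12e-04, edgeR). The fall against Pi (-1.09 ± 0.43, adjusted p = 0.0391) was lost without Pi replicate 1 (-0.59), Pi_tZ replicate 2 (-0.95) or Pi_tZ replicate 3 (-1.02). In starved roots CPL3 averaged 6.52 CPM in 5Pi_tZ and 7.79 CPM in 5Pi_cZ, against 6.49 CPM in 5Pi.

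OFP11 (AT4G14860), of the ovate family of transcriptional repressors, had 0.234, 0.375 and 0.704 CPM in Pi_tZ and 1.71, 2.40 and 1.41 CPM in Pi_cZ, against 0.328, 0.560 and 0.279 CPM in Pi. It rose by 2.28 ± 0.44 with cis-zeatin (adjusted p = 4.51e-04, edgeR), and the isomer difference was -2.02 ± 0.44 (adjusted p = 8.84e-04). OFP11 and a gene on the same strand, SECE1, overlap, and how reads in the overlap were counted is not given. The related OFP17 (AT2G30395) and AT2G45120, a C2H2 zinc finger gene, differed between the isomers by -0.39 ± 0.12 (adjusted p = 0.0131) and -0.55 ± 0.21 (adjusted p = 0.0397). Each of those 2 calls was lost without Pi_tZ replicate 1, at -0.31 and -0.41; OFP17 was also lost without Pi_cZ replicate 2 (-0.35), and AT2G45120 without Pi_cZ replicate 1 (-0.56), Pi_cZ replicate 3 (-0.47) or Pi_tZ replicate 2 (-0.55).

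In fed roots 10 members were called higher with trans-zeatin than with cis-zeatin. All were also higher in Pi_cZ than in Pi except GLR2.5, which was not called, and PUP18, which was lower. AT1G78830, a curculin-like mannose-binding lectin gene (chr1:29636818-29638773, minus strand), had 308.5, 327 and 287 CPM in Pi_tZ and 127, 121 and 133 CPM in Pi_cZ, against 48.1, 57.3 and 61.9 CPM in Pi. The 3 groups were separate. The rise was 2.56 ± 0.15 with trans-zeatin (adjusted p = 1.51e-11, edgeR), and the isomer difference was 1.31 ± 0.14 (adjusted p = 4.05e-07). In starved roots the gene had 305, 228 and 255 CPM in 5Pi_tZ and 249, 170.0 and 189 CPM in 5Pi_cZ, against 214.5, 264 and 216 CPM in 5Pi. Fed roots with trans-zeatin were thus within or above the range of starved roots.

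AT3G07350, annotated with a DUF506 domain, had 26.7, 25.8 and 22.4 CPM in Pi_tZ and 14.9, 14.97 and 15.1 CPM in Pi_cZ, against 3.75, 4.76 and 5.77 CPM in Pi. Its rise was 2.48 ± 0.16 with trans-zeatin (adjusted p = 5.73e-11, edgeR) and its isomer difference 0.77 ± 0.14 (adjusted p = 1.57e-04). AT2G29670, a tetratricopeptide repeat gene, and GLR2.5 (AT5G11210), a glutamate receptor-like channel, rose by 1.38 ± 0.12 and 1.14 ± 0.15 with trans-zeatin and were higher with it than with cis-zeatin by 0.86 ± 0.11 and 0.76 ± 0.15. GLR2.5 overlaps UAP56b on the opposite strand, and the strandedness of the kit is not given, so counts in the overlap are uncertain.

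These 4 genes were the members with no call in 5Pi_tZ against Pi_tZ. The other 102 were higher in starved roots under trans-zeatin, where 32.7% of all genes tested were called higher and 64.1% in either direction. The log2 fold change of the 4 was -0.30 ± 0.14 for AT1G78830 (adjusted p = 0.0614, edgeR), -0.13 ± 0.13 for AT3G07350, 0.12 ± 0.11 for AT2G29670 and 0.04 ± 0.14 for GLR2.5. Under cis-zeatin (5Pi_cZ against Pi_cZ) 106 members were higher, where 24.8% of all genes tested were called higher and 49.2% in either direction. With the sequencing set as a term 94 were higher, where 15.6% of all genes were called in either direction. The rule fixes much of both counts, because it holds the starved zeatin groups near 5Pi. Medians over the members were 1.51 under trans-zeatin and 1.20 under cis-zeatin, beside 1.75 without zeatin, and the tip growth genes had 1.71, 1.01 and 1.79. Comparisons with and without zeatin use different fed libraries, and the 3 medians were not tested against each other.

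PLAT3 (AT5G65158), of the lipase/lipoxygenase PLAT family, had 1.31, 1.88 and 2.20 CPM in Pi_tZ and 1.14, 0.624 and 1.27 CPM in Pi_cZ, against 0.141, 0.653 and 0.465 CPM in Pi. It rose by 2.18 ± 0.38 with trans-zeatin (adjusted p = 6.69e-05, edgeR). Its isomer difference (0.86 ± 0.32, adjusted p = 0.0355) was lost without Pi_cZ replicate 1 (0.95) or 2 (0.61), or without Pi_tZ replicate 2 (0.82) or 3 (0.68). PLAT3 and the member TPR14 (AT5G65160) lie 180 bases apart on opposite strands, the 1 pair of members within 1000 bases. TPR14 was lower in Pi_tZ than in Pi_cZ (-0.42 ± 0.12, adjusted p = 9.97e-03). AT5G43590, an acyl hydrolase gene, rose by 1.49 ± 0.22 with trans-zeatin (adjusted p = 8.73e-06).

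Of the 16 defence and stress genes 8 rose and 1 fell in Pi_cZ against Pi, where 12.7% of all genes tested rose and 13.5% fell. Over all members 62.3% rose and 2.83% fell there. In Pi_tZ against Pi 3 rose and 3 fell (18.8% each), under the shares over all genes tested, 24.2% and 25.3%. Chitinases differed from each other. ChiC (AT4G19810), a glycosyl hydrolase with a chitinase insertion domain, had 23.8, 23.5 and 19.6 CPM in Pi_tZ and 46.5, 51.9 and 30.5 CPM in Pi_cZ, against 31.5, 26.3 and 24.5 CPM in Pi, and its isomer difference was -0.91 ± 0.18 (adjusted p = 4.36e-04, edgeR). HCHIB (AT3G12500), the basic chitinase, had 42.0, 45.7 and 37.1 CPM in Pi_tZ and 42.3, 46.5 and 44.0 CPM in Pi_cZ, against 56.4, 46.6 and 49.4 CPM in Pi, with no call in the 3 fed comparisons. In starved roots ChiC had 210, 168 and 234 CPM in 5Pi_tZ and 171, 179 and 241 CPM in 5Pi_cZ, against 224, 169 and 211 CPM in 5Pi.

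AT5G57625, of the cysteine-rich secretory and pathogenesis-related 1 superfamily, averaged 79.4 ± 16.99 CPM in Pi_tZ and 159 ± 13.2 CPM in Pi_cZ, against 83.9 ± 13.1 CPM in Pi (SD, n = 3 each). Its isomer difference was -0.96 ± 0.17 (adjusted p = 1.68e-04, edgeR). CSD1 (AT1G08830), the cytosolic copper/zinc superoxide dismutase, had 102, 91.4 and 90.7 CPM in Pi_tZ and 127, 83.3 and 101 CPM in Pi_cZ, against 159, 96.0 and 93.6 CPM in Pi. The groups overlapped, and it was not called in fed roots. The dirigent-like gene AT1G22900 fell with both isomers, by 1.84 ± 0.38 on the log2 scale in Pi_tZ (adjusted p = 3.87e-04) and by 1.69 ± 0.37 in Pi_cZ (adjusted p = 1.29e-03), yet in starved roots averaged 10.6 CPM in 5Pi_tZ and 9.83 CPM in 5Pi_cZ, against 10.6 CPM in 5Pi.

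Of the 11 transport genes 7 rose in Pi_tZ against Pi and none fell, beside 24.2% of all genes tested higher and 25.3% lower. In Pi_cZ against Pi 8 rose and 1 fell, beside 12.7% and 13.5% of all genes tested and 62.3% and 2.83% of all members. Besides GLR2.5 the 7 included CAX3 (AT3G51860), a vacuolar cation exchanger (0.53 ± 0.12, adjusted p = 8.51e-04, edgeR), the tonoplast aquaporin gene DELTA-TIP (AT3G16240; 0.30 ± 0.09, adjusted p = 6.50e-03) and PUP18 (AT1G57990), of the purine permease family. PUP18 had 34.1, 42.2 and 37.6 CPM in Pi_tZ and 21.9, 23.5 and 26.3 CPM in Pi_cZ, against 32.2, 30.5 and 31.3 CPM in Pi. It rose with trans-zeatin (0.38 ± 0.10, adjusted p = 5.03e-03) and was higher with it than with cis-zeatin (0.70 ± 0.11, adjusted p = 2.43e-05). The fall with cis-zeatin (-0.32 ± 0.11, adjusted p = 0.0272) was lost without Pi replicate 1 or 3, or Pi_cZ replicate 1 or 2 (-0.32 to -0.27).

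Among the 7 other kinases, 4 rose in Pi_cZ against Pi, and 5 were lower in Pi_tZ than in Pi_cZ. The shares over all genes tested were 12.7% and 20.5%, and over all members 62.3% and 52.8%. AT2G29000, a leucine-rich repeat kinase gene, had 0.327, 0.750 and 0.657 CPM in Pi_tZ and 1.76, 1.54 and 1.22 CPM in Pi_cZ, against 0.281, 0.513 and 0.512 CPM in Pi, an isomer difference of -1.34 ± 0.38 (adjusted p = 7.22e-03, edgeR). AT3G46760 fell with trans-zeatin by 1.18 ± 0.22 on the log2 scale (adjusted p = 1.90e-04) and AT5G51270, a U-box kinase gene, by 0.66 ± 0.14 (adjusted p = 4.53e-04). Of the 5 glucosidases and carbon enzymes 2 rose with trans-zeatin and 4 with cis-zeatin. The shares were 24.2% and 12.7% of all genes tested, and 25.5% and 62.3% of all members. BMY3 (AT5G18670), a beta-amylase family gene, had 33.5, 35.9 and 32.5 CPM in Pi_tZ and 24.9, 23.6 and 25.1 CPM in Pi_cZ, against 18.3, 17.8 and 19.8 CPM in Pi. Its isomer difference was 0.50 ± 0.09 (adjusted p = 1.43e-04, edgeR).

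The remaining 26 members included TT7 (AT5G07990), the flavonoid 3'-hydroxylase. It had 2.29, 2.34 and 2.58 CPM in Pi_tZ and 5.75, 5.57 and 4.97 CPM in Pi_cZ, against 6.05, 6.30 and 6.51 CPM in Pi. trans-Zeatin lowered it by 1.29 ± 0.21 on the log2 scale (adjusted p = 3.98e-05, edgeR), and the isomer difference was -1.14 ± 0.22 (adjusted p = 2.90e-04). AT3G20557 rose by 1.90 ± 0.21 with cis-zeatin (adjusted p = 5.21e-07). AT5G14150, annotated with a DUF642 domain, fell with trans-zeatin by 0.60 ± 0.15 on the log2 scale (adjusted p = 1.83e-03); its fall with cis-zeatin (-0.41 ± 0.14, adjusted p = 0.0407) was lost in each of the 6 settings without 1 library (-0.43 to -0.30).

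Lists of the classical starvation response held almost no member. Of 24 phosphate transport and signalling genes 11 were starvation-induced, and 10 of those lay under the band with both zeatins and none within it. Of 19 lipid remodelling genes 13 were starvation-induced, and 13 lay under the band with both. Glycerol-3-phosphate permeases (5 genes) and a list of 12 phosphate-sparing carbon genes had 3 starvation-induced genes each and no member. The 10 type-A response regulators, which cytokinin induces, were not starvation-induced. In fed roots 10 rose with trans-zeatin and 9 with cis-zeatin, and 2 were higher in Pi_tZ than in Pi_cZ. The shares of all genes tested called higher were 24.2%, 12.7% and 20.7%.

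As for genomic neighbours, of the 106 members 4 had a starvation-induced gene within 1000 bases (3.77%), against 2.44% of all genes tested. AT1G30550 lies 733 bases from G3Pp3, a glycerol-3-phosphate permease gene on the opposite strand that averaged 8.36 CPM in 5Pi_tZ and 11.3 CPM in 5Pi_cZ, against 28.4 CPM in 5Pi. AT1G30550 itself averaged 8.39 CPM in 5Pi_tZ and 8.14 CPM in 5Pi_cZ, against 10.1 CPM in 5Pi. Counting could not be separated by strand for 23 members that overlap a gene on the opposite strand, among them RIC1, HCHIB, EXPA7, MRH2, AT1G30870, CSD1, DELTA-TIP and BMY3.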

How the data were processed

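The authors deposited a table of counts per gene for 18 libraries and a sequencing report. The submitters' processing notes name HISAT2, HTSeq, FastQC, edgeR and CASAVA 1.4, and neither the build nor the strandedness is stated in the labels. Although the table's name speaks of normalized counts, its values are whole numbers whose sums are 88.7 to 91.0% of the clean reads, and they were analysed as raw counts. CPM is the count over the column total. All columns were mapped to samples by title.

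The members, lists and roles were chosen with earlier results of these data known. Named genes are the members with the 10 largest starvation differences, the 10 highest untreated starved levels, those in a list, the 5 largest rises and falls called in each fed comparison, transcription factors, and those nearest a threshold; others named were chosen after their values were seen.

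Genes were tested with edgeR 4.0.16 in R 4.3.3: filterByExpr with a minimum count of 10 left 19982 genes, including the 106 members; TMM factors were 0.953 to 1.06, and all 18 libraries entered 1 quasi-likelihood fit with a mean per group. Adjusted p is Benjamini-Hochberg over the genes of a comparison, and 0.05 is the threshold for a call. Errors of log2 fold changes are standard errors. The fit was tested on simulated data. Alternatives were DESeq2 1.42.0, other scaling and filters, only the groups compared, a replicate block and each library left out. Replicate chi-square showed no duplicate libraries. Upstream windows, 50-base uniqueness and neighbours come from RefSeq TAIR10.1, in which the 106 members were all matched. Replicate numbers paired 5Pi_tZ with 5Pi by the correlation of deviations from group means (0.267, 0.303 and 0.166); the labels do not say what the numbers mark.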

Additional observations from a re-analysis of the deposited data

How the results depend on the processing

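The number of members depended on the rule's thresholds: a band of 0.2 gave 43, a band of 0.5 gave 229 and a starvation threshold of 1.5 gave 54, beside 106. It was 112 with TMM-scaled CPM, 125 and 82 with a level of 1 and 10 CPM, 110 with a pseudocount of 0.5, and 83 to 123 without 1 library. Without both low-phosphate zeatin libraries numbered 2, an alternative added after seeing the data, it was 124, with 86 of the 106 kept, and the calls below were 45, 75, 71, 101 and 105.

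Members called numbered 39 in Pi_tZ against Pi (30 to 37 without 1 library), 69 in Pi_cZ against Pi (55 to 68), 66 in Pi_tZ against Pi_cZ (55 to 66), 102 in 5Pi_tZ against Pi_tZ (100 to 102) and 106 in 5Pi_cZ against Pi_cZ (103 to 105). With DESeq2 the counts were 37, 71, 64, 102 and 105. Only the members kept whichever library was left out, 38 genes and an alternative added after seeing the data, gave 17, 31 and 25 calls in the first 3 comparisons, fewer because fewer genes enter. A replicate block gave 39, 68, 66, 102 and 105. In these 5 comparisons replicate numbers did not pair the samples (correlations of deviations -0.184 to 0.108). With the sequencing set as a term, added after seeing the data, 94 were called in 5Pi_cZ against Pi_cZ. In that fit 15.6% of all genes were called, against 49.2% in the main fit. Of 117 results for named genes in the fed comparisons, 30 changed side of the threshold in some alternative and 0 reversed. Groups of 3 libraries limit all calls; changes of low genes were the least precise.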
